A study of Mus musculus with 4 samples.

Results

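Regulatory T cells are the CD4 T cells that restrain immune responses, and 9 of the genes by which they are usually recognised were followed across 4 single-cell RNA libraries: Foxp3, Il2ra, Ctla4, Ikzf2, Il10, Tnfrsf4, Tnfrsf9, Tnfrsf18 and Itgb8. All 9 were found among the 31053 genes of the count matrices. They were read in T-cell barcodes, defined as cell barcodes outside the authors' deposited table of clustered cells, with mitochondrial genes under 10% of gene UMIs and at least 1 UMI summed over Cd3d, Cd3e and Cd3g. The columns of that table name no cell type, and its cells are called B-lineage here for their levels of B-cell markers. A UMI (unique molecular identifier) marks 1 captured transcript. These T-cell barcodes numbered 3257 of 31885, and 91 of them held a Foxp3 UMI.

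Cell sorting for CD45, the marker of blood-derived cells, gave the immune cells of Peyer's patches, which are follicles of lymphoid tissue in the wall of the small intestine. Hosts were female wild-type Taconic mice. The SFB-positive group carried segmented filamentous bacteria, commensals known to adhere to epithelial cells of the ileum, and the SFB-negative group did not. Each group had 2 libraries, replicates 1 and 2, from 5 pooled mice, and whether the replicates came from separate pools is not clear from the labels. A p-value below can thus speak only for the spread from library to library, which may be technical.

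Foxp3 encodes the forkhead transcription factor that sets and maintains the regulatory T cell programme. Il2ra (the IL-2 receptor alpha chain, CD25), Ctla4 (an inhibitory receptor that competes with CD28 for CD80 and CD86), Tnfrsf4 (OX40), Tnfrsf9 (4-1BB) and Tnfrsf18 (GITR) are surface receptors that these cells share with activated T cells. Ikzf2 encodes the transcription factor Helios, Il10 an inhibitory cytokine, and Itgb8 the integrin beta chain that, with alpha-V, releases active TGF-beta. In the intestine, regulatory T cells are known for holding back responses to commensal bacteria and food, and in Peyer's patches related follicular cells sit near germinal centres.

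In the GENCODE M21 annotation of the mouse build GRCm38, the members lay on chromosomes X (Foxp3), 2 (Il2ra), 12 (Itgb8), 1 (Ctla4, Ikzf2 and Il10) and 4 (the 3 TNF-receptor genes). Foxp3 spanned chrX:7573644-7595245 on the plus strand and shared that span with Flicr, a noncoding gene on the same strand, so a UMI placed there could belong to either. Tnfrsf4 (chr4:156013843-156016612) and Tnfrsf18 (chr4:156026164-156028895) lay close together on the plus strand. RefSeq promoters on GRCm38.p6, running from 250 bases before to 50 bases after a transcript start, were at hand for 7 of the 9 members. The 4 below are shown because they hold the motif matches described next. Capitals mark those matches.

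Foxp3 promoter, the second start, chrX:7580233-7580532, plus strand: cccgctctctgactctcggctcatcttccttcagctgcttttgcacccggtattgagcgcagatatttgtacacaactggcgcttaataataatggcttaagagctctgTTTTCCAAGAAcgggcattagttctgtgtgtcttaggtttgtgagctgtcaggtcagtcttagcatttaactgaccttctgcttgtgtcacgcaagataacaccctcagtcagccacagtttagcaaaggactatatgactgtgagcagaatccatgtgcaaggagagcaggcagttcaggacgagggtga
Ctla4 promoter, chr1:60908775-60909074, plus strand: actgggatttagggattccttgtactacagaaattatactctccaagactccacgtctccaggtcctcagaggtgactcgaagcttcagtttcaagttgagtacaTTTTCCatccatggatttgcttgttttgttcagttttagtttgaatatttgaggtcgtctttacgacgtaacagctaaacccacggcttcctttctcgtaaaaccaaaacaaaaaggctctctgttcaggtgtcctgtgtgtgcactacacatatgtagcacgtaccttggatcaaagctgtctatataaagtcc
Tnfrsf9 promoter, the second start, chr4:150927749-150928048, plus strand: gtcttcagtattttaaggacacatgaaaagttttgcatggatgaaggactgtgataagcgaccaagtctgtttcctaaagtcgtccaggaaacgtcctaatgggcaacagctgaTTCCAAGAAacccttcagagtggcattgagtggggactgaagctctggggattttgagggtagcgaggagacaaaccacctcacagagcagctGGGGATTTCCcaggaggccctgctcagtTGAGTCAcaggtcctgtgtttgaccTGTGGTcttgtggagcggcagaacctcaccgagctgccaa
Tnfrsf18 promoter, chr4:156026072-156026371, plus strand: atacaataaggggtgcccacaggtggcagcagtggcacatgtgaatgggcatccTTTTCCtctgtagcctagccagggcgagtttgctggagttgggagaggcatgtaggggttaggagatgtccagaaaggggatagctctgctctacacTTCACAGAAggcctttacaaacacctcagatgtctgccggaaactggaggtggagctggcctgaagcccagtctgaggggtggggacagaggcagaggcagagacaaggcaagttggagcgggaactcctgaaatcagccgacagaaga

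The motifs were searched on both strands. The NFAT core GGAAAA, present in 23.4% of 32851 RefSeq promoters, was found in Foxp3, Ctla4 and Tnfrsf18, and at the first start of Tnfrsf9, which is not shown. The STAT motif TTCNNNGAA, present in 8.3% of all promoters, was found in Foxp3, Tnfrsf9 and Tnfrsf18, and in Foxp3 it overlapped the NFAT match. The second start of Tnfrsf9 also held matches to the NF-kB consensus (1.63% of all promoters), the AP-1 motif TGANTCA (7.81%) and the Runx motif TGTGGT (16.8%). The forkhead motif GTAAACA (3.65%) had no match in the windows of these members. A match describes letters in a window of 300 bases and does not show a bound site.

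The 4 libraries differed in depth by replicate number. The T-cell barcodes held a median of 1476 and 6774 UMIs in SFB-positive replicates 1 and 2, against 1586 and 3673 UMIs in SFB-negative replicates 1 and 2. They numbered 321 and 1383 in the SFB-positive libraries, against 297 and 1256 in the SFB-negative libraries. Genes with 100 kb or more of intron had a median log2 difference of 1.68 (SFB-positive) and 1.13 (SFB-negative) in CPM (gene UMIs scaled to a common library total) for replicate 2 over replicate 1. Genes with under 10 kb of intron had -0.66 and -0.75, so values of both replicate numbers are given apart. The summed level of 8 T-cell markers was 9107 and 3680 CPM in SFB-positive T-cell barcodes, against 8879 and 3497 CPM in SFB-negative ones. In cells of the authors' table, 8 B-cell markers summed to 10443 and 4845 CPM (SFB-positive) and 10902 and 4333 CPM (SFB-negative). T-cell barcodes had 1046 and 772 CPM (SFB-positive) and 1342 and 769 CPM (SFB-negative) of these markers. The part of B-cell RNA in the results below was not tested beyond leaving out the barcodes with at least as many UMIs of B-cell genes as of Cd3, called B-gene barcodes below. Only 1 T-cell barcode sequence was shared between libraries (the replicate 1 pair), and none of the Foxp3-detected ones was.

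Foxp3 was rare, and its frequency did not separate the SFB groups. It was detected in 1 and 55 T-cell barcodes of the SFB-positive libraries, or 0.312% and 3.98%, against 4 and 31 of the SFB-negative libraries, or 1.35% and 2.47%. The SFB-positive libraries lay on both sides of the SFB-negative ones, with means of 2.14 ± 2.59% and 1.91 ± 0.793% (SD, n = 2 each; exact two-sided permutation test, p = 1.00, the smallest possible being 0.33). Within replicate 1 the SFB-positive share was the lower one, and within replicate 2 it was the higher one. With each barcode thinned to 1000 UMIs, Foxp3 was found in 0 of 295 and 18 of 1380 SFB-positive barcodes, against 2 of 284 and 8 of 1232 SFB-negative ones.

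Foxp3 UMIs were concentrated in the T-cell barcodes. Only 7 of the 22569 B-lineage cells of the authors' table held one, at 0.0542% of these cells in SFB-positive replicate 2 and 0.0388% in SFB-negative replicate 2, where their median depths were 5864 and 3252 UMIs. A further 5 of 3297 barcodes without a Cd3 UMI, and 6 of 2762 with 10% or more mitochondrial UMIs, held one. Of 6 myeloid markers, Lyz2, Csf1r, Itgax, Cd14 and Fcer1g were at 0 in the Foxp3-detected barcodes of all 4 libraries. Cst3 was not, and the list's sum was 0 and 78.3 CPM in the SFB-positive libraries, against 212 and 119 CPM in the SFB-negative ones. The sum was low in Foxp3-not-detected barcodes too, at 91.6 and 143 CPM (SFB-positive) and 231 and 178 CPM (SFB-negative). Csf1r, Itgax, Cd14 and Fcer1g were at 0 there in SFB-positive replicate 1. Of 6 markers of natural killer and innate lymphoid cells, Ncr1, Klre1 and Tyrobp were at 0 in the Foxp3-detected barcodes of all 4 libraries. Klrb1c, Gzma and Kit were found in replicate 2, where the list's sum was 157 (SFB-positive) and 244 CPM (SFB-negative) in Foxp3-detected barcodes, against 163 and 137 CPM in Foxp3-not-detected ones. The part of such cells in the results was not tested. The summed level of 8 B-cell markers in Foxp3-detected barcodes was 1508 and 629 CPM in the SFB-positive libraries, against 2750 and 1054 CPM in the SFB-negative ones. The single Foxp3-detected barcode of SFB-positive replicate 1 held 663 UMIs, of which 1 was Cd79a, so 1 UMI there equals 1508 CPM.

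All 8 other members were higher in Foxp3-detected than in Foxp3-not-detected T-cell barcodes. In this test the UMIs of each kind were summed within each library and compared across the 8 sums with the library as a block (edgeR's quasi-likelihood test, Benjamini-Hochberg adjustment over 7062 genes). Foxp3 itself was not tested, because it chose the barcodes. Past an adjusted p of 0.05, 4.11% of all tested genes were higher and 3.84% lower in Foxp3-detected barcodes. Nearly all of the information comes from replicate 2, where Foxp3-detected and Foxp3-not-detected barcodes had median depths of 7207 and 6765 UMIs in SFB-positive and 3385 and 3682 UMIs in SFB-negative cells.

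Among the cytokines and their receptors, Il10 had the largest fitted difference of the 8. It stood at 439 CPM in Foxp3-detected and 7.995 CPM in Foxp3-not-detected barcodes of SFB-positive replicate 2, and at 230 and 4.27 CPM in SFB-negative replicate 2. In SFB-negative replicate 2, 1 Foxp3-detected barcode held 26 of the 33 UMIs, and without it the level was 49.8 CPM. It was at 0 in the Foxp3-detected barcodes of both replicate 1 libraries, which number 1 and 4, while 24.3 CPM was present in the other T-cell barcodes of SFB-positive replicate 1. The log2 difference was 5.42 ± 0.33 (SE; edgeR, adjusted p = 2.1e-55). Il2ra, whose product raises the affinity of the receptor for IL-2, reached 175 against 10.1 CPM in SFB-positive replicate 2 and 140 against 9.71 CPM in SFB-negative replicate 2, Foxp3-detected barcodes first. In replicate 1 it had 0 against 5.61 CPM in the SFB-positive and 212 against 1.99 CPM in the SFB-negative library. Its log2 difference was 3.91 ± 0.32 (edgeR, adjusted p = 4.6e-32).

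The 3 TNF-receptor genes were each higher in the Foxp3-detected barcodes of both replicate 2 libraries. Tnfrsf9 had 730 and 726 CPM in Foxp3-detected barcodes of SFB-positive and SFB-negative replicate 2, against 51.4 and 93.4 CPM in the Foxp3-not-detected ones, and differed by 3.21 ± 0.37 on the log2 scale (edgeR, adjusted p = 3.2e-15). Tnfrsf4 had 911 and 1215 CPM in the Foxp3-detected barcodes, against 127 and 133 CPM in the others, a log2 difference of 2.43 ± 0.47 (edgeR, adjusted p = 9.7e-06). Tnfrsf18 had 373 and 398 CPM, against 81.4 and 110 CPM, a log2 difference of 1.72 ± 0.33 (edgeR, adjusted p = 1.3e-05). Tnfrsf9 and Tnfrsf18 were higher in the Foxp3-detected barcodes of all 4 libraries, as was Ikzf2, and 1.6% of all tested genes were. In SFB-positive replicate 1 this direction rests on 1 UMI each of Tnfrsf9 and Tnfrsf18 in 1 barcode. The calls for Tnfrsf4 and Tnfrsf18 were lost when either replicate 2 library was left out.

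Itgb8 and the nuclear and inhibitory members followed the same direction. Itgb8 had 322 and 182 CPM in the Foxp3-detected barcodes of SFB-positive and SFB-negative replicate 2, against 22.9 and 34.0 CPM in the Foxp3-not-detected ones, and a log2 difference of 3.12 ± 0.29 (edgeR, adjusted p = 2.0e-23). It was at 0 in the 1 and 4 Foxp3-detected barcodes of replicate 1. Ikzf2 had 2556 and 2011 CPM, against 449 and 499 CPM in the Foxp3-not-detected barcodes of the same libraries. Its log2 difference of 2.04 ± 0.66 (edgeR, adjusted p = 0.029) was no longer called without the B-gene barcodes, which left no Foxp3-detected barcode in SFB-positive replicate 1 (1.73; edgeR, adjusted p = 0.13), nor without SFB-positive replicate 2 or either SFB-negative library. Ctla4 had 2202 and 915 CPM in the Foxp3-detected barcodes of SFB-positive and SFB-negative replicate 2, against 443 and 174 CPM in the others, a log2 difference of 1.96 ± 0.59 (edgeR, adjusted p = 0.016). In the lone Foxp3-detected barcode of SFB-positive replicate 1 it was at 0, against 316 CPM in the rest of that library, and the call was lost when SFB-positive replicate 2 or either SFB-negative library was left out. A fit to the replicate 2 libraries alone had not been planned and holds 1 library per SFB group. All 8 members were called higher in it, where 4.33% of 10136 genes were. The log2 differences lay between 1.95 (Tnfrsf18) and 5.69 (Il10).

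**Figure D1:**
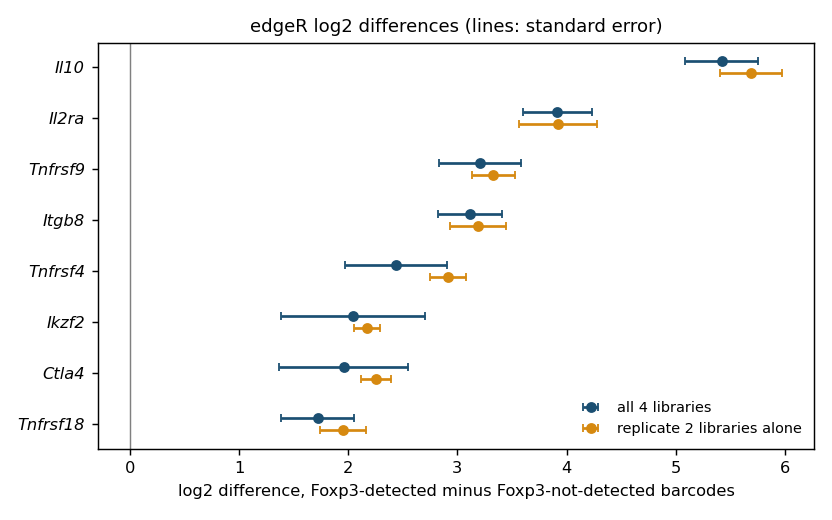
Log2 difference of the 8 other members between Foxp3-detected and Foxp3-not-detected T-cell barcodes (x axis) for each gene (y axis), with its standard error, from all 4 libraries and from the replicate 2 libraries alone. All values lie above 0, from 1.72 (Tnfrsf18) to 5.42 (Il10) in the fit to all libraries.

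The median prior degrees of freedom of this fit were infinite, so a gene's variance was taken from the trend over genes and a very small p does not measure that gene's own spread between libraries. On simulated counts this comparison also made more false calls than its limit allows. In the normalisation, the Foxp3-detected sum of SFB-positive replicate 1 received a factor of 5.99, against 0.648 to 1.38 for the other sums. That sum is 1 barcode. With relative log expression size factors instead, 345 of 7062 genes were called higher and 385 lower, and all 8 members were called higher. With barcodes thinned to 1000 UMIs, and Foxp3 detection taken from the thinned UMIs, 3 of the 8 members were called, where 0.188% of 3197 genes were higher.

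The same contrast was seen barcode by barcode. In replicate 2, Ctla4 was found in 94.5% (95% exact Clopper-Pearson interval 84.9 to 98.9) of the 55 SFB-positive and in 87.1% (70.2 to 96.4) of the 31 SFB-negative Foxp3-detected barcodes, against 50.5% and 26.4% of the 1328 and 1225 Foxp3-not-detected barcodes. Tnfrsf4 was found in 83.6% and 90.3% of the Foxp3-detected barcodes of these libraries, against 22.8% and 16.9% of the others. Il2ra and Il10 were rarer in both kinds of barcode. Il2ra was found in 47.3% (33.7 to 61.2) and 35.5% (19.2 to 54.6), against 3.77% and 2.78%. Il10 was found in 25.5% (14.7 to 39.0) and 22.6% (9.59 to 41.1), against 1.81% and 0.735%. Intervals cover counting error only.

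Itgb8 was found in 50.9% and 32.3% of Foxp3-detected barcodes in SFB-positive and SFB-negative replicate 2, against 4.14% and 6.29% of Foxp3-not-detected ones. Tnfrsf9 was found in 76.4% and 64.5%, against 17.2% and 13.4%, Ikzf2 in 76.4% and 80.6%, against 35.5% and 30.5%, and Tnfrsf18 in 78.2% and 77.4%, against 39.2% and 31.3%. In B-lineage cells of the authors' table in the same libraries, Ctla4 was found in 6.79% and 3.82%, Tnfrsf18 in 4.92% and 3.12%, Il2ra in 3.14% and 1.40%, and the other 6 members in under 1%. The Il2ra intervals in Foxp3-not-detected T-cell barcodes were 2.81 to 4.93% and 1.93 to 3.86%, of which that of SFB-positive replicate 2 included the B-lineage share.

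**Figure D2:**
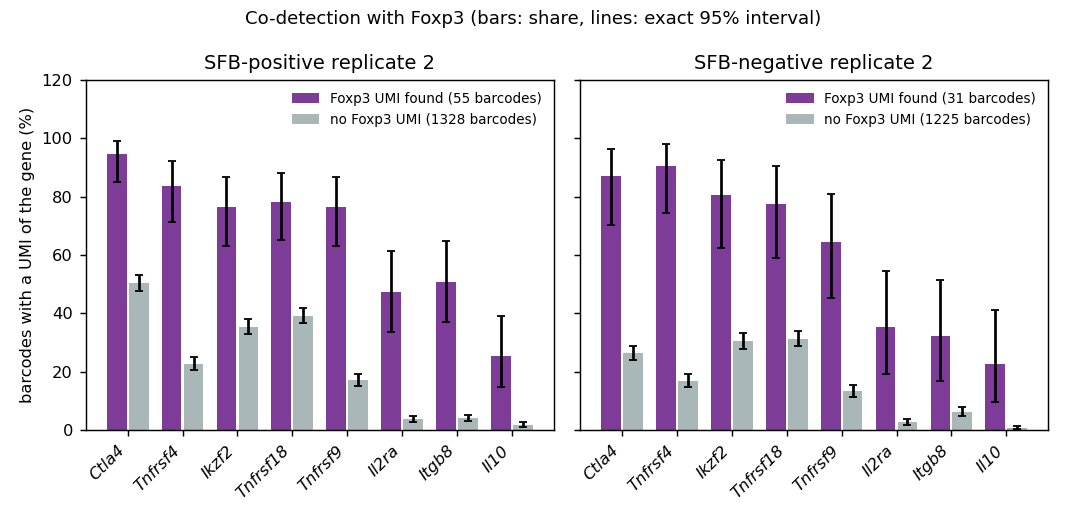
Share of T-cell barcodes with at least 1 UMI of each member (y axis, percent, with 95% exact intervals) in Foxp3-detected and Foxp3-not-detected barcodes of the replicate 2 libraries. Every member has the higher share in Foxp3-detected barcodes of both libraries, with Ctla4 at 94.5% and 87.1% and Il10 at 25.5% and 22.6%.

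All 8 members kept the higher share in both libraries at equal depth. With every barcode thinned to 1000 UMIs and Foxp3 detection read from all UMIs, Ctla4 was found in 74.5% and 51.6% of Foxp3-detected barcodes (SFB-positive and SFB-negative replicate 2), against 25.6% and 13.3% of the others. Il2ra was then found in 11 of 55 and 3 of 31, against 0.453% and 1.08%, and Ikzf2 in 65.5% and 74.2%, against 19.6% and 18.7%. Foxp3-detected barcodes held a median of 6 and 5 of the 8 other members in the unthinned data, against 1 and 1 in the Foxp3-not-detected ones. At least 4 members were present in 87.3% and 83.9% of Foxp3-detected barcodes, against 15.1% and 11.2% of the others.

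Read the other way, no member picked out Foxp3-detected barcodes alone. Of the Il10-detected T-cell barcodes of replicate 2, 36.8% (SFB-positive) and 43.8% (SFB-negative) also held Foxp3, and of the Il2ra-detected ones 34.2% and 24.4% did. For Ctla4 the shares were 7.19% and 7.71%. Foxp3-detected barcodes were 3.98% and 2.47% of T-cell barcodes in these libraries but held 70.8% and 60.0% of the Il10 UMIs, in SFB-negative replicate 2 mostly through the 1 barcode with 26 UMIs. Barcodes with 6 or more of the 8 members numbered 59 and 34, of which 30 and 9 held a Foxp3 UMI. A barcode without a Foxp3 UMI may still express the gene, so Foxp3-not-detected is a statement about detection.

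The Foxp3-not-detected barcodes were further read by the other genes they held, in sets that overlap. Tnfrsf4 was found in 3.27% and 3.04% of those with a Cd8 UMI in SFB-positive and SFB-negative replicate 2, and in 39.7% and 38.7% of those with Cd4 and no Cd8 UMI. Il2ra was found in 23.5% and 27.6% of barcodes with a UMI of type 17 genes, among them Il17a, Il17f, Il22 and Il23r, which number 98 and 29, where Itgb8 was found in 2.04% and 0%. Itgb8 was instead found in 8.89% and 21.6% of barcodes with 2 or more UMIs summed over the follicular helper genes Cxcr5, Bcl6, Pdcd1, Il21 and Tox2, and Ikzf2 in 53.2% and 64.3% of them. Tnfrsf18 differed less between sets, at 34.2% and 28.5% with Cd8 and 46.1% and 38.7% with Cd4.

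**Figure D3:**
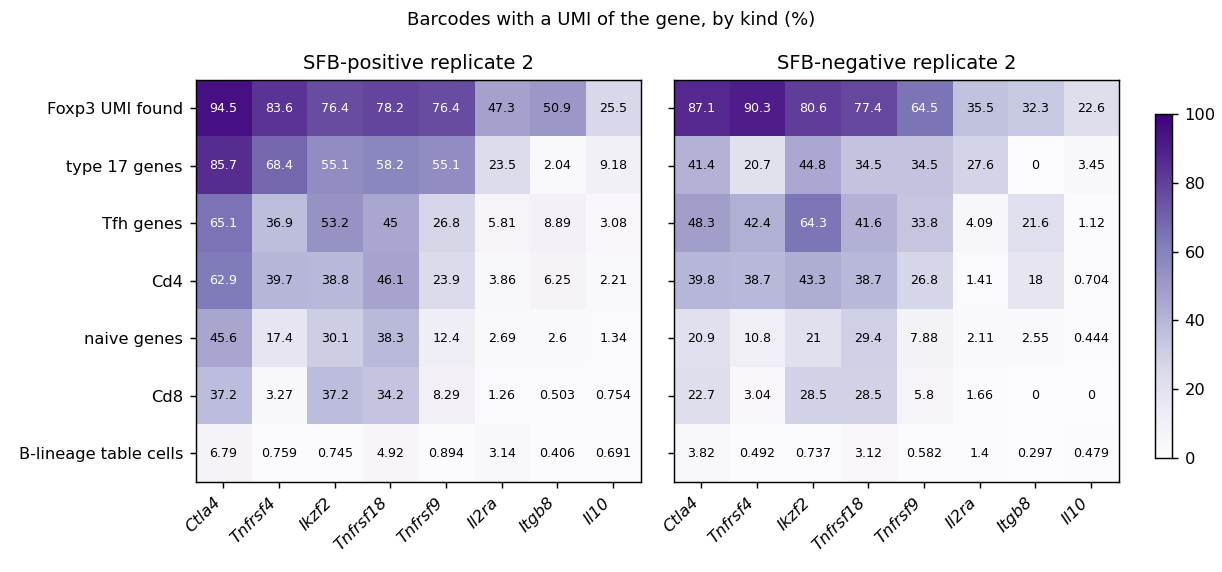
Share of barcodes with a UMI of each other member (colour and printed value, percent; columns are genes, rows are kinds of barcode) in Foxp3-detected T-cell barcodes, in sets of Foxp3-not-detected T-cell barcodes and in B-lineage cells of the authors' table, for the replicate 2 libraries; naive genes means 2 or more UMIs of a set with Ccr7 and Lef1. Itgb8 stands at 2.04% and 0% in barcodes with type 17 genes, while Il2ra holds 23.5% and 27.6% there.

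Other genes tied to regulatory T cells moved with the members, in lists chosen with earlier results of these data known. Of 14 listed partner genes, 11 were higher and 0 lower in Foxp3-detected barcodes, with a median log2 difference of 2.06 against -0.17 over all 7062 tested genes (edgeR). Lrrc32 (GARP, which holds latent TGF-beta at the cell surface) had 163 and 90.8 CPM in Foxp3-detected barcodes of SFB-positive and SFB-negative replicate 2, against 3.09 and 6.21 CPM in the others, a log2 difference of 4.81. Nrp1 (a semaphorin co-receptor) differed by 4.18, Dusp4 (a kinase phosphatase) by 2.80, and Ikzf4 (the factor Eos) by 2.61. Entpd1 and Nt5e, which encode the ectoenzymes CD39 and CD73 that turn extracellular ATP into adenosine, differed by 2.56 and 1.80. Of the 11, Gpr83, Nrp1, Entpd1 and Lag3 were at 0 in the Foxp3-detected barcodes of both replicate 1 libraries. Izumo1r, Tigit and Icos did not pass the limit, at 0.89, 0.85 and 0.57.

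Of 13 tested genes of a list for effector regulatory T cells, 11 were higher and 0 lower, with a median of 1.52. Of these 11, Itgae was lower in SFB-negative replicate 2, at 20.95 CPM in Foxp3-detected and 33.4 CPM in the other barcodes. Gzmb, also among them, had 112 of its 113 UMIs in Foxp3-detected barcodes from SFB-positive replicate 2. In SFB-negative replicate 1 it had 0 CPM, against 405.5 CPM in the other barcodes. Il1rl1 (ST2, the IL-33 receptor) had 28.9 and 76.8 CPM in Foxp3-detected barcodes of the replicate 2 libraries, against 1.00 and 3.50 CPM, a log2 difference of 4.55. Klrg1 differed by 4.17, the epithelial growth factor gene Areg by 2.88, Ccr8 by 2.17, and the transcription factor genes Gata3 and Maf by 1.93 and 1.47. Klrg1 and Ccr8 had 18 and 16 UMIs in Foxp3-detected barcodes. Batf and Irf4 did not pass the limit, at 0.61 and 0.59.

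The pathways in which the members act moved in part. Of 11 IL-2 and STAT5 genes, 4 were higher: Socs2 (3.32) and Cish (2.52), inhibitors induced by STAT5, Il2rb (1.32), the receptor's beta chain, and Il2 (3.06), of whose 11 UMIs in Foxp3-detected barcodes 9 came from 1 barcode of SFB-negative replicate 2. Of 8 TGF-beta genes, Itgav (the alpha-V chain, 2.35) and Lrrc32 were higher and Tgfbr2 (-1.57) was lower. Of 7 tested TNF-receptor and costimulation genes, Traf1, a signalling adaptor, was higher (1.29) and Cd86, a ligand of Ctla4, lower (-1.49). The Cd86 difference came from SFB-positive replicate 2, with 10.3 CPM in Foxp3-detected and 107 CPM in the other barcodes, while SFB-negative replicate 2 had 146.7 and 146.8 CPM. Of 6 tested IL-10 genes, Il10rb (1.06), Maf and Nfil3 (1.5) were higher. Of 14 genes for factors that work with Foxp3, Gata3 was higher and Ikzf1 (-1.75) lower, and the list's median was -0.29.

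Of 9 tested genes of naive T cells, 5 were lower and 0 higher, with a median of -1.69: Lef1 (-2.02) and Tcf7 (-2.28), which encode transcription factors of resting T cells, S1pr1 (-1.58), which guides exit from lymphoid tissue, and Igfbp4 and Dapl1, each with 3 UMIs in Foxp3-detected barcodes against 2507 and 957 in the others. Of 6 tested type 17 genes, Rora was higher (1.40), while Il22 was lower (-1.88) and Il17a had 1 UMI in Foxp3-detected barcodes, against 965 in the others. Of 7 tested follicular helper genes, Cd40lg was lower (-1.18) and 6 did not pass the limit.

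Outside the lists, the genes with the largest increases that were higher in Foxp3-detected barcodes of all 4 libraries were, besides Areg and Traf1, Dennd5a (log2 difference 2.12), Atp2b4 (1.98), Pmaip1 (1.74), Bhlhe40 (1.71), Ptger4 (1.49), Cldnd1 (1.42), Snx18 (1.27) and S100a10 (1.20). Each rests in SFB-positive replicate 1 on 1 to 3 UMIs of 1 barcode. Atp2b4 encodes a plasma membrane calcium pump, Pmaip1 the apoptosis regulator Noxa, and Ptger4 a prostaglandin E2 receptor. Lower in all 4 were Lyz2, Gm43698, Pdlim4 and Tcrg-C1, with 0 UMIs in Foxp3-detected barcodes against 391, 319, 258 and 232 in the others, and Bend4 with 1 against 1321. The Foxp3-detected barcodes of replicate 1 held 663 and 9453 UMIs in all, too few to show a lower level of such genes, so this direction rests on replicate 2.

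Between the SFB groups, no member passed the limit when UMIs were summed over all T-cell barcodes of a library. Called genes made up 0% of 10079 tested (edgeR's quasi-likelihood test without a block). At an unadjusted p under 0.05 there were 23 genes, and DESeq2 called 2, neither of them a member. In such sums, fewer barcodes of a kind and fewer transcripts per barcode cannot be told apart. Ctla4 and Il10 were the 2 members whose groups did not overlap, both higher in SFB-positive libraries, where 9.26% of all tested genes were higher without overlap and 4.83% lower.

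Ctla4 had 316 and 518 CPM in SFB-positive T-cell barcodes, against 91.7 and 194 CPM in SFB-negative ones, in the order of replicates 1 and 2. The means were 417 ± 143 and 143 ± 72.5 CPM (SD, n = 2 each), and both SFB-positive libraries stood above both SFB-negative ones. Within replicate 1 the level was 3.44-fold higher, and within replicate 2 2.66-fold higher. The log2 difference was 1.38 ± 0.69 without a block (edgeR, adjusted p = 1.00). With the replicate number as a block it was 1.40 ± 0.24 (edgeR, adjusted p = 2.0e-06), where 0.764% of genes were higher and 1.65% lower. Here too the median prior degrees of freedom was infinite, so this p does not measure the spread of Ctla4 itself. The block rests on 1 residual degree of freedom and on numbers that the labels do not say pair the libraries, although depth and file headers differed by them.

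Il10 had 24.3 and 26.2 CPM in the SFB-positive libraries, against 0 and 10.4 CPM in the SFB-negative ones. These levels come from few barcodes: 4 and 38 held Il10 in the SFB-positive libraries, against 0 and 16 in the SFB-negative ones, and 0 of 297 allows a share of barcodes with an Il10 UMI of up to 1.01% by 3 counts. Single barcodes held 10 of the 13 UMIs in SFB-positive replicate 1, 50 of 301 in SFB-positive replicate 2 and 26 of 55 in SFB-negative replicate 2. The log2 difference was 1.78 ± 1.05 without the block (edgeR, adjusted p = 1.00) and 1.37 ± 0.36 with it (edgeR, adjusted p = 0.0088). Without the Foxp3-detected barcodes the blocked value was 1.23 (edgeR, adjusted p = 0.32).

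**Figure D4:**
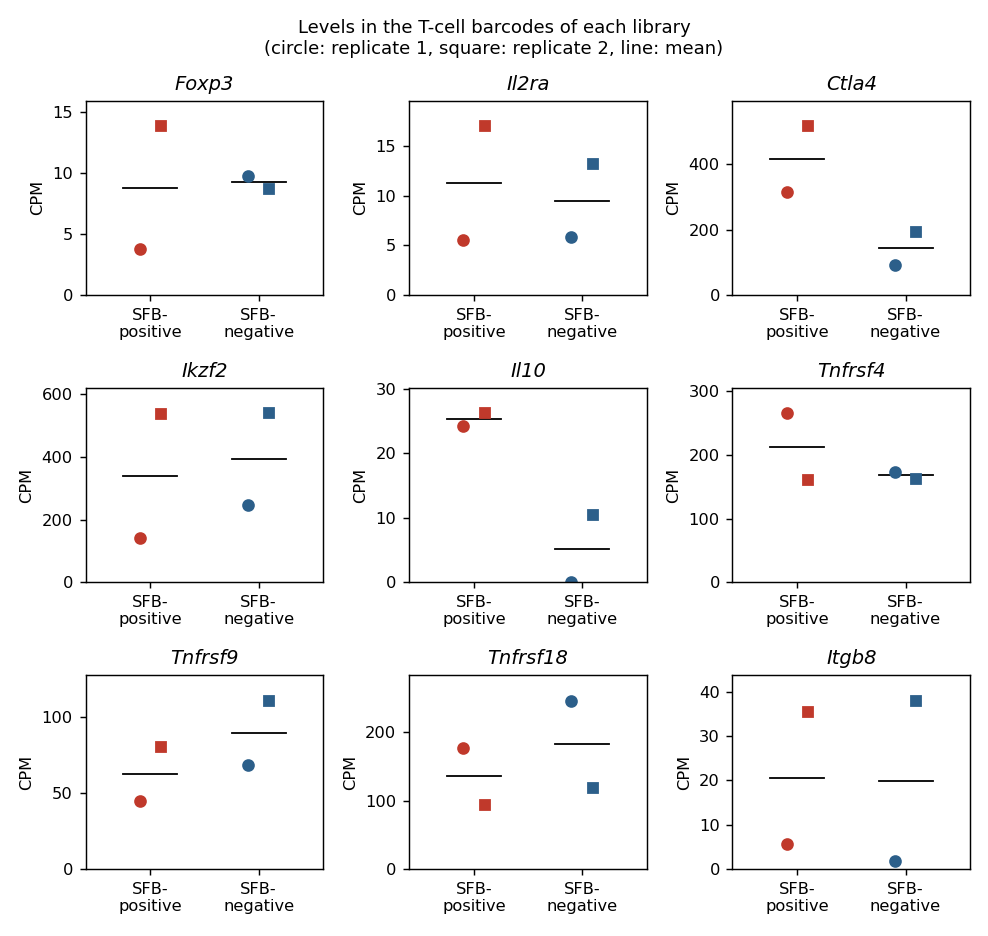
Level of each of the 9 members in T-cell barcodes of the 4 libraries (y axis, CPM, a linear axis from 0 for each gene), with SFB-positive libraries left of SFB-negative ones, circles for replicate 1, squares for replicate 2 and lines for the means. Ctla4 (316 and 518 against 91.7 and 194 CPM) and Il10 (24.3 and 26.2 against 0 and 10.4 CPM) do not overlap between groups; the other 7 members do.

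The other 7 members overlapped between the groups. Foxp3 had 3.74 and 13.8 CPM in SFB-positive T-cell barcodes, against 9.75 and 8.69 CPM in SFB-negative ones, and Il2ra 5.60 and 17.1 CPM, against 5.85 and 13.2 CPM. Tnfrsf9 was lower in the SFB-positive library within each replicate number, with 44.8 and 80.1 CPM against 68.3 and 110.5 CPM, as was Tnfrsf18, with 177 and 93.7 CPM against 246 and 118 CPM. Neither passed the limit with or without the block. Ikzf2 had 142 and 538 CPM against 246 and 539 CPM, and Itgb8 5.60 and 35.5 CPM against 1.95 and 38.0 CPM, so for both genes the replicate numbers lay further apart than the groups. Tnfrsf4 had 265 and 160 CPM against 174 and 162 CPM. Ikzf2 and Itgb8 have long introns, and the levels of such genes differed most between the replicate numbers.

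The Ctla4 difference remained when the Foxp3-detected barcodes were left out. These held 0% and 18.0% of the Ctla4 UMIs of SFB-positive T-cell barcodes, against 21.3% and 12.7% in the SFB-negative libraries. In replicate 1 they number only 1 (SFB-positive) and 4 (SFB-negative). Without them the blocked log2 difference was 1.48 (edgeR, adjusted p = 2.1e-06), where 0.697% of genes were higher and 1.5% lower. Barcodes that express Foxp3 without a detected UMI stayed in these sums, and their part was not tested. Among Foxp3-not-detected barcodes with Cd4 and no Cd8 UMI, Ctla4 stood at 916 and 682 CPM in SFB-positive libraries, against 71.9 and 334 CPM in SFB-negative ones. The value of SFB-negative replicate 1 rests on 4 Ctla4 UMIs in 31 barcodes. Barcodes with type 17 genes made up 6.54% and 7.09% of SFB-positive T-cell barcodes, against 0.337% and 2.31% of SFB-negative ones. They held 44.4% and 25.6% of the Ctla4 UMIs, against 6.38% and 5.06%. Foxp3-not-detected barcodes with Cd4 and no Cd8 UMI made up 20.2% and 39.3% of SFB-positive T-cell barcodes, against 10.4% and 22.6% of SFB-negative ones. Those with follicular helper genes made up 4.67% and 42.3%, against 2.36% and 21.4%, and held 57.9% (SFB-positive) and 44.7% (SFB-negative) of the Ctla4 UMIs of replicate 2. In replicate 1 this set held 15 (SFB-positive) and 7 (SFB-negative) barcodes. It needs 2 or more UMIs, and replicate 2 T-cell barcodes held a median of 6774 (SFB-positive) and 3673 UMIs (SFB-negative). The Cd4 and type 17 sets are set by detected UMIs as well. The part of depth in the shares of these 3 sets was not tested. With the replicate block, 0 of 9 tested follicular helper genes were higher, and Pdcd1 was lower (-0.97). Cd4 itself had 162.5 and 117 CPM in SFB-positive T-cell barcodes, against 78.0 and 100.1 CPM in SFB-negative ones. The part of the Cd4 and follicular helper sets in the Ctla4 difference was not tested. Without any T-cell barcode with type 17 genes, Foxp3-detected ones included, the blocked log2 difference of Ctla4 was 0.94 (edgeR, adjusted p = 0.026), and that of Il10 0.79 (edgeR, adjusted p = 0.79), where 0.331% of genes were higher and 1.27% lower.

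**Figure D5:**
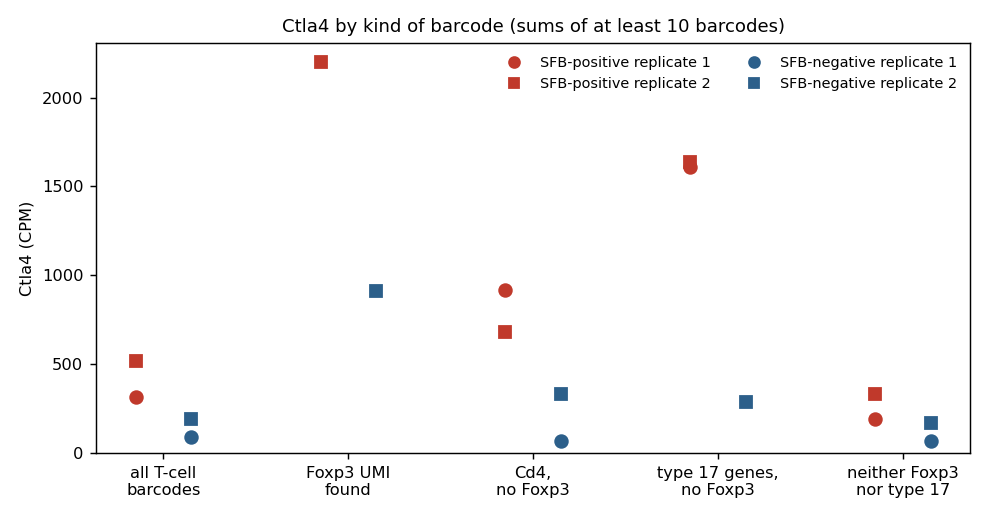
Ctla4 level (y axis, CPM) in all T-cell barcodes, Foxp3-detected ones and sets of Foxp3-not-detected ones, SFB-positive left of SFB-negative, with a point for each library that holds at least 10 such barcodes. In barcodes with type 17 genes the SFB-positive libraries stand at 1612 and 1636 CPM, against 288 CPM in SFB-negative replicate 2, while SFB-negative replicate 1 has 1 such barcode and no point.

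Type 17 genes themselves were higher with the block, 5 of the 8 listed. Il17a, which encodes the cytokine for which T cell responses to SFB are best known, had 323 and 67.3 CPM in SFB-positive T-cell barcodes, against 0 and 3.78 CPM in SFB-negative ones. Of the 14 regulatory T cell partner genes, 2 were higher with the block, Lag3 (log2 difference 2.08) and Icos (0.83), both also found on activated T cells. Of the 13 tested effector genes, Rora (1.11) and Maf (0.87) were higher and Ccr8 (-1.64) was lower. Without the block, 0 genes of the 10 lists passed the limit.

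Within Foxp3-detected barcodes, the SFB groups were not tested, because only 1 and 4 such barcodes came from replicate 1. In replicate 2, the intervals of the detected shares overlapped between the groups for all 8 members, and with 1 usable library per group the difference was not tested. The gap was widest for Itgb8, at 50.9% (37.1 to 64.6) in the 55 SFB-positive barcodes and 32.3% (16.7 to 51.4) in the 31 SFB-negative ones. Whether the Foxp3-detected difference itself depended on the SFB group was tested as an interaction, in which 0.566% of 7062 genes and 0 of the 8 members passed the limit (edgeR, which gave 1 member, Itgb8, an unadjusted p under 0.05, while DESeq2 called 0 genes). For Itgb8 the interaction was 1.44 ± 0.48 on the log2 scale, positive for a larger difference in SFB-positive libraries (edgeR, adjusted p = 0.20), and it passed the limit under relative log expression size factors (1.58, adjusted p = 0.00034). Itgb8 was at 0 in the Foxp3-detected barcodes of both replicate 1 libraries, so its interaction rests on 1 library per group. The median prior degrees of freedom of the main interaction fit was infinite too, so its p does not measure the spread of Itgb8 itself.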

How the data were processed

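Droplet 3' single-cell libraries were made from about 6000 loaded cells each, aiming at 4000, per the labels' protocols. The deposited matrices hold raw UMI counts per gene and barcode. The authors' deposited table lists 22569 cells, called B-lineage here, with counts of UMIs and genes, the percent of mitochondrial UMIs, cluster numbers 0 to 6 and UMAP coordinates (a score). Only membership in the table was used here. Cell Ranger 5.0.1 and mm10 are named in the submitters' processing notes, while the file headers name Cell Ranger 6.0.0 for replicate 1 and 7.0.0 for replicate 2. Whether introns were counted is not given in the sources used here, and the part of this setting in the levels of genes with long introns was not tested. Replicate 1 files also hold 15 antibody tags, none for a member, and these were not used.

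Barcodes were chosen as stated at the start of the results. No doublet caller was run. UMIs were summed per library, normalised by trimmed mean of M-values, filtered with filterByExpr and tested with edgeR 4.0.16 in R 4.3.3 (quasi-likelihood F-test, adjusted p limit 0.05). DESeq2 1.42.0 was an alternative. Shares and intervals came from Python 3.11.15 with pandas 2.3.3, numpy 2.4.6 and scipy 1.17.1. Scripts were tested on simulated data, where the Foxp3 comparison made more false calls than its limit allows and the SFB comparison did not. The simulated counts had the same spread for every gene and, for the SFB comparison without the block, no difference between replicate numbers. They therefore cannot show how often the SFB comparison calls falsely in these data. A comparison of SFB groups within Foxp3-detected barcodes had been planned, and was left untested because a library held under 10 of them. The members and gene lists were chosen with earlier results of these data known. Genes named are the members, list genes past the limit in the Foxp3 comparison, and the 10 highest and 5 lowest others past the limit, with a mean of at least 20 CPM in the higher kind and the same direction in all 4 libraries. A few list genes that were not called, detection counts of other genes and list genes called with the replicate block were added after their values were seen. Some genes of the B-cell, type 17 and naive sets are not reported here by name.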

Additional observations from a re-analysis of the deposited data

Results flagged for a closer look

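In the test of whether the Foxp3-detected difference itself differed between the SFB groups, 40 of 7062 genes passed the limit (edgeR, adjusted p limit 0.05), 13 with a larger and 27 with a smaller difference in SFB-positive libraries. None of the 8 members tested was among them. The SFB-positive side of this test rests on 1 Foxp3-detected barcode in replicate 1 and 55 in replicate 2, against 4 and 31 in the SFB-negative libraries, and 2 genes passed without SFB-positive replicate 1. The part of that barcode in the count was not tested further.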

How the results depend on the processing

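Between SFB groups in T-cell barcodes, the count of called genes was 0 with edgeR without a block, 2 with DESeq2, 6 with no filter on low counts, 243 with the replicate block, and with that block 241 without B-gene barcodes, 160 without type 17 barcodes and 221 without Foxp3-detected barcodes; leaving out each library gave 0 to 4. The members called were 0 without a block, 2 with it (Ctla4 and Il10), 2 with it and without B-gene barcodes, 1 with it and without type 17 barcodes (Ctla4), and 2 with it and without Foxp3-detected barcodes (Ctla4 and Tnfrsf9). Tnfrsf9 was then lower, by -0.89 on the log2 scale. The labels do not say that replicate numbers pair the libraries, and 2 pairs are too few to check it. In the Foxp3 comparison, 561 genes were called, against 187 with DESeq2, 329 with at least 2 Cd3 UMIs, 283 without B-gene barcodes, 327 at a mitochondrial limit of 5%, 6 after thinning, and 95 to 553 without each library. The 8 members called became 3 after thinning, 7 without B-gene barcodes, 6 with at least 2 Foxp3 UMIs (without Ctla4 and Ikzf2) and 3 to 8 without each library. Thinning, the B-gene setting, the 5% limit and at least 2 Cd3 UMIs each left SFB-positive replicate 1 with no Foxp3-detected barcode. The interaction called 40 genes, against 61 with relative log expression size factors, 0 with DESeq2, the replicate block or thinning, 1 with at least 2 Cd3 UMIs or without B-gene barcodes, 2 at the 5% limit, 15 with at least 2 Foxp3 UMIs and 0 to 34 without each library; its members called were 0, and 1 (Itgb8) with relative log expression factors. Of the 8 other members, 4 had the higher mean share among Foxp3-detected barcodes in the SFB-positive group, and 2 after thinning to 500 UMIs; these means include a library of 1 barcode, so single barcodes set them. The causes of these changes were not tested. No member reversed its direction in a called value. Other settings for member levels between SFB groups within Foxp3-detected barcodes were not run. Depth limits the replicate 1 libraries, which hold 5 of the 91 Foxp3-detected barcodes.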
